A study of Mus musculus with 5 samples.

Results

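The leukocyte lineage marker genes are 43 genes, of 51912 gene IDs in each table, that mark the white blood cells a tissue holds. They were kept by exact mouse symbol from a list written by cell lineage, a rule that uses no measured value. The list has 16 markers of T and natural killer (NK) cells, 6 of B and plasma cells, 12 of macrophages, 4 of neutrophils, 4 of mast cells and the pan-leukocyte gene Ptprc. Of the 43, 35 had enough counts for the test across all genes and 8 did not (Cd79a, Cd79b, Ms4a1, Mzb1, Ly6g, Cpa3, Mcpt4 and Fcer1a).

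RNA came from flash-frozen tissue labelled as dorsolateral prostate, from male mice 7 months old. The 3 Ghr deletion mice carried ROSA26Cre-ERT2+/0, a Cre recombinase that tamoxifen activates, and the labels of the 2 tamoxifen control mice list no Cre. Both groups were Ghrflox/flox, with the growth hormone receptor gene floxed, and both had SV40 C3(1) T-antigen+/0, a transgene that drives prostate tumours. Both were given 250 mg/kg tamoxifen on each of 5 days and sampled 1 month later. The ROSA26 locus is known as broadly expressed, in leukocytes too; in which cells Ghr was excised here was not measured. Ghr itself had 232, 668 and 652 counts in the deletion libraries, against 336 and 646 in the controls, with overlapping groups; counts over the whole gene do not single out the floxed part, so they do not check the deletion. Deletion of Ghr and presence of Cre cannot be told apart in this design.

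Each leukocyte lineage is recognised by transcripts for its own receptors and granule proteins. T cells carry the CD3 chains of the antigen receptor with CD4 or CD8 as co-receptor, and cytotoxic T and NK cells store granzymes. Tissue macrophages depend on the receptor for colony stimulating factor 1, make the complement protein C1q and are rich in lysozyme and lysosomal proteases. Mast cells need the receptor tyrosine kinase KIT and are filled with proteases and histamine. The prostate normally holds resident macrophages and scattered T cells and mast cells in its stroma.

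The libraries held 28536636, 37910327 and 33414067 expected counts (RSEM's estimated reads per gene) in Ghr deletion replicates 1, 2 and 3, against 47656212 and 13812454 in tamoxifen control replicates 1 and 2. They differed strongly in secretory content. Genes of the seminal vesicle list summed to 7827721, 10899001 and 476619 counts in the deletion libraries, against 16950341 and 383541 in the controls. In this sum, deletion replicate 3 and control replicate 2 stood apart from the rest. The sum does not describe each gene, as 6 of the 9 had all deletion libraries below both controls in CPM. Of all 18615 tested genes, 10.2% did. The 8 prostate markers summed to 3170, 7878 and 1531 counts in the deletion libraries, against 103942 and 690 in the controls. In the deletion libraries nearly all of this was Acpp, an acid phosphatase of the prostate, with 3105, 7808 and 1440 counts there, while Pbsn, the secretory protein probasin, had 4, 8 and 3 counts, against 411 and 1, and Hoxb13, a prostate transcription factor, 0, 1 and 4, against 13 and 0. Values are therefore given as counts, as CPM and as the authors' TPM. CPM are counts scaled to library sizes adjusted by the TMM method. With that scaling of all 5 libraries, the median log2 fold change of all tested genes was 0.00. TPM is relative to gene length and to all transcripts of a library. TPM carries that secretory content in its total.

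Leukocyte markers were lower in the deletion libraries in CPM, with T and NK cell markers furthest below the controls and Kit above them. Of the 35 tested members, 31 had a log2 fold change below 0 (49.6% of all 18615 tested genes did) and the median was -0.96. All 3 deletion libraries lay below both controls for 20 tested members, against 10.2% of all tested genes, and above both for 2 (Foxp3 and Kit), against 9.43%. No member passed the test across all genes: edgeR's quasi-likelihood test called 0 members and 0% of all genes after Benjamini-Hochberg adjustment at 0.05, and the members' adjusted p ran from 0.991 to 1.00. An unadjusted p under 0.05 was reached by 8 members in the lower direction (Cd2, Cd8a, Cd8b1, Gzmb, Csf1r, C1qa, Lyz2 and Ptprc; 3.23% of all genes) and by Kit in the higher direction (1.69% of all genes). DESeq2 called 0 members, with no adjusted p for 5 of them, and 0.892% of all genes (0.698% lower and 0.193% higher). In bulk tissue, fewer cells of a type and less RNA per cell cannot be told apart. The edgeR and DESeq2 p-values weigh the difference between the groups against the spread between mice of the same group.

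The sign of many of these fold changes differed in a fit of the authors' TPM, which changes both the scale and the model. In that limma fit of log2(TPM + 0.1), the median of all tested genes was 0.91 and that of the tested members 0.08, which is -0.83 relative to all genes. Of the 35, 33 were below the all-gene median and 15 were below 0, and for 0 members did the deletion libraries all lie below both controls (0.688% of all genes did). With edgeR kept and only the scaling changed to library totals, 30 of the 35 were below 0. There the median of all genes was 0.23 and that of the members -0.84. With that scaling 1 member lay below both controls in all 3 deletion libraries, and 2.69% of all genes did. The plot of summed levels shows both scales.

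**Figure D1:**
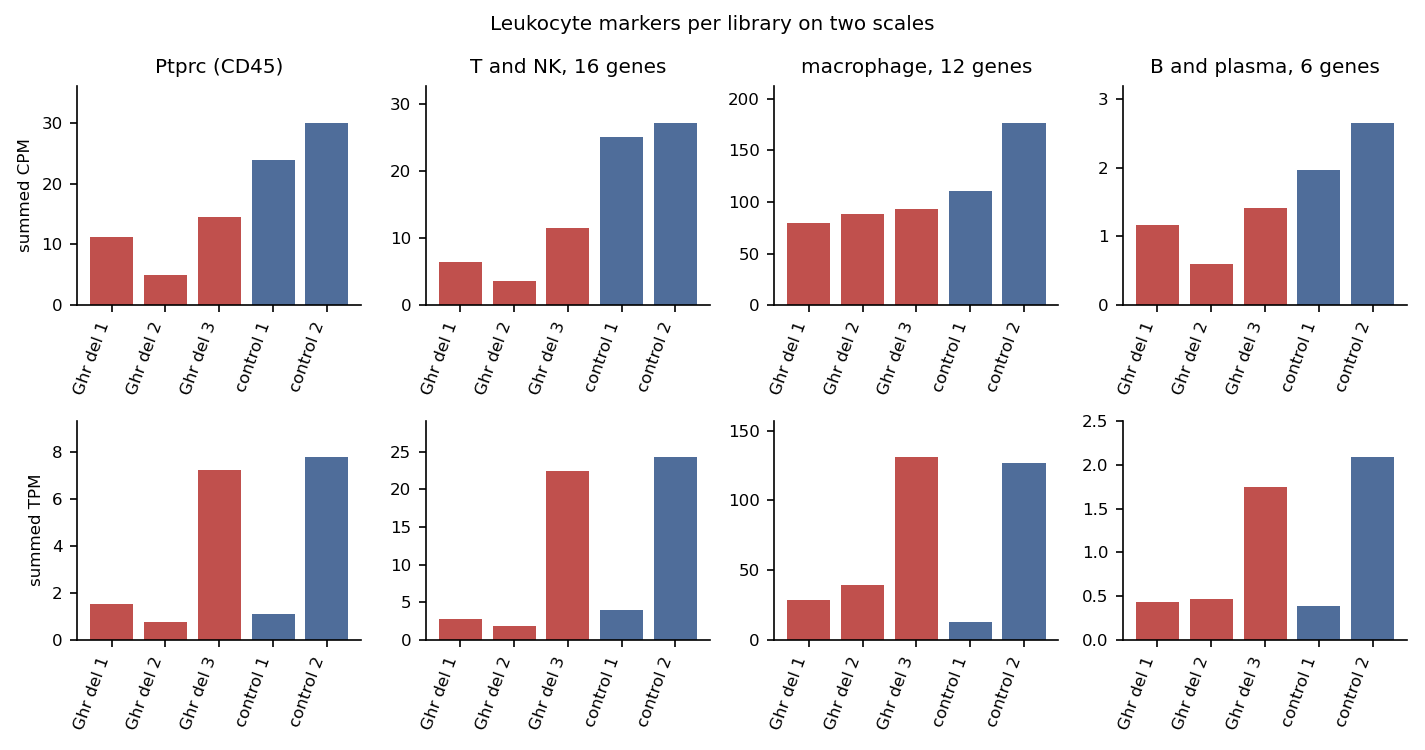
Summed CPM (upper row) and summed TPM (lower row) of Ptprc, the 16 T and NK cell markers, the 12 macrophage markers and the 6 B and plasma cell markers, one bar per library, with the 3 Ghr deletion libraries in red left of the 2 tamoxifen controls in blue. In CPM each deletion bar is shorter than both control bars in the 4 panels; in TPM deletion replicate 3 and control replicate 2 are the tallest bars.

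Ptprc encodes CD45, the tyrosine phosphatase on the surface of nearly all nucleated blood cells, and lies at chr1:138062861-138175708 on the minus strand of GRCm38. Rounded to whole numbers, it had 320, 156 and 789 counts in the deletion libraries, against 560 and 621 in the controls. In CPM this was 11.2, 4.89 and 14.6 in the deletion libraries, against 24.0 and 30.1 in the controls, or 10.2 ± 4.95 (SD, n = 3) against 27.0 ± 4.32 (SD, n = 2). The groups did not overlap in CPM, and deletion replicate 2 was the lowest library. Its log2 fold change of -1.40 had an SE of 0.48 (95% interval -2.54 to -0.25) and an adjusted p of 0.991 in edgeR's quasi-likelihood test after Benjamini-Hochberg adjustment. In an exact two-sided permutation test of log2(CPM + 0.5) the difference of -1.47 gave p = 0.2, where 0.1 is the smallest p that 3 against 2 libraries allow. In TPM the groups overlapped, with 1.54, 0.77 and 7.23 in the deletion libraries, against 1.10 and 7.80 in the controls.

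Further genes of all leukocytes came from a list of 16 that were all tested, with a median of -1.06. In this list 14 had a fold change below 0, against 49.6% of all tested genes. For 10 of the list all 3 deletion libraries lay below both controls, against 10.2% of all tested genes. The gene called in DESeq2, in the lower direction, was Coro1a, an actin regulator of leukocytes; edgeR called 0, with 2 at an unadjusted p under 0.05. The 2 of highest mean TPM were Cd52, a small glycoprotein of lymphocytes that the male genital tract also makes in quantity, and Lcp1, the actin bundler L-plastin. Cd52 had 14965, 4949 and 708 counts in the deletion libraries, against 28310 and 2077 in the controls. Its libraries split as the summed counts of the seminal vesicle list did. Lcp1 had 6320, 10545 and 12302 counts, against 4449 and 4152. Neither follows Ptprc from library to library.

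T and NK cell markers were the lineage with the lowest median. All 16 were tested, 14 had a fold change below 0, the median was -1.72, and for 10 all 3 deletion libraries lay below both controls. Of all 18615 tested genes, 49.6% were below 0 and 10.2% lay below both controls in all 3 deletion libraries. Summed over the 16, the deletion libraries had 184, 115 and 621 counts, against 584 and 561 in the controls. In CPM the sums were 6.45, 3.60 and 11.5, against 25.0 and 27.2. Deletion replicate 2 had the lowest CPM for 13 of the 16. In deletion replicates 1 and 2, counts over 20 were found for Lck, Foxp3 and Cd4 only. In TPM the sums overlapped, with 2.82, 1.81 and 22.4 against 3.90 and 24.3.

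The CD3 chains form the signalling part of the T cell receptor, and their genes lie side by side on chromosome 9. Cd3g had 18, 3 and 62 counts in the deletion libraries, against 54 and 66 in the controls. That was 0.631, 0.0940 and 1.15 CPM, against 2.31 and 3.20, with a log2 fold change of -2.11 (SE 0.91). Cd3e had 5, 4 and 35 counts, against 15 and 19 (log2 fold change -1.25, SE 0.89), and Cd3d 1, 1 and 11, against 3 and 9. Cd3g kept the groups apart in CPM, while Cd3e overlapped by a narrow margin in deletion replicate 3. Cd2, an adhesion receptor of T and NK cells, had 6, 4 and 10 counts, against 14 and 18 (-2.05, SE 0.71).

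CD8 is the co-receptor of cytotoxic T cells, a pair of chains encoded by the neighbours Cd8a and Cd8b1 on chromosome 6. Cd8a had 19, 7 and 31 counts in the deletion libraries, against 37 and 93 in the controls. In CPM this was 0.666, 0.219 and 0.575, against 1.58 and 4.50, or 0.487 ± 0.236 (SD, n = 3) against 3.04 ± 2.06 (SD, n = 2). Every deletion library was below both controls, and the controls differed from each other by more than the deletion libraries did. Its log2 fold change was -2.63 (SE 0.74, 95% interval -4.39 to -0.87), with an adjusted p of 0.991 in edgeR's quasi-likelihood test and 0.0802 in DESeq2, both after Benjamini-Hochberg adjustment. Without control replicate 1 it was -3.20 and without control replicate 2 it was -1.70. Cd8b1 had 9, 1 and 4 counts, against 13 and 38 (-3.11, SE 1.07; -2.0 without control replicate 2 and -3.73 without control replicate 1).

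CD4 marks helper and regulatory T cells and some macrophages, and its gene did not keep the groups apart. Cd4 had 9, 25 and 15 counts in the deletion libraries, against 14 and 18 in the controls (log2 fold change -0.68, SE 0.75). Of the counts of Cd8a and Cd4 together, Cd8a took 67.9%, 21.9% and 67.4% in the deletion libraries, against 72.5% and 83.8% in the controls. The 95% Wilson intervals were 49.3 to 82.1, 11.0 to 38.8 and 53.0 to 79.1, against 59.1 to 82.9 and 75.8 to 89.5. Only deletion replicate 2 had an interval clear of both control intervals.

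Foxp3, the transcription factor of regulatory T cells, ran the other way. It had 24, 25 and 49 counts in the deletion libraries, against 9 and 13 in the controls. In CPM this was 0.841, 0.783 and 0.909, against 0.385 and 0.629, so all deletion libraries were above both controls. Its log2 fold change of 0.74 (SE 0.63) had a 95% interval of -0.77 to 2.24, which includes 0. The exons of Foxp3 overlap those of Flicr on the same strand and of Ccdc22, Gm36995 and Ppp1r3f on the other. Its expected counts were not whole, so they may include reads shared with these genes. The strand setting of the counting is not given, so how many reads were shared is not known. Ctla4, a regulatory T cell gene named after its values were seen, had 0 counts in each deletion library, against 5 and 4 in the controls.

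The kinases and co-stimulators of T cell activation had few counts. Lck, the kinase that starts receptor signalling, had 27, 15 and 34 in the deletion libraries, against 37 and 40 in the controls (log2 fold change -1.36, SE 0.58). Zap70, the kinase that acts after it, had 12, 0 and 5, against 17 and 13 (-2.01, SE 1.27). Cd28, the co-stimulatory receptor, had 5, 1 and 10, against 14 and 5 (-1.64, SE 0.98). For these 3 the deletion libraries were all below both controls in CPM. The margin was narrow for Cd28, at 0.186 CPM in deletion replicate 3 and 0.242 in control replicate 2, from few counts. Cd5, a scavenger-type receptor of T cells and some B cells, had 4, 14 and 1, against 2 and 5 (0.25, SE 1.36) and overlapped widely.

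Granule genes mark cytotoxic T and NK cells, and Gzmb had the highest count of the lineage in both controls. Gzmb, the protease granzyme B, had 11, 7 and 111 counts in the deletion libraries, against 158 and 117 in the controls. In CPM it was 0.386, 0.219 and 2.06, against 6.76 and 5.66, with a log2 fold change of -2.77 (SE 0.93, 95% interval -5.01 to -0.54) that was -4.36 without deletion replicate 3. Deletion replicate 3 had more granzyme RNA than the other deletion libraries and still lay below both controls in CPM. Gzma, granzyme A, had 19, 1 and 159 counts, against 118 and 74 (-1.80, SE 1.26; -3.64 without deletion replicate 3). Nkg7, a granule membrane protein, had 10, 2 and 34, against 44 and 23 (-2.07, SE 0.91), and Klrb1c, the NK cell receptor NK1.1, 5, 5 and 50, against 35 and 10 (-1.20, SE 1.00). Gzma and Nkg7 kept the groups apart in CPM and Klrb1c did not.

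Of 24 further T and NK cell genes, 16 were tested. Among those, 15 had a fold change below 0, against 49.6% of all tested genes. For 8, all deletion libraries lay below both controls, against 10.2% of all tested genes. Of the 16, edgeR and DESeq2 called 0, and 1 had an unadjusted p under 0.05 in edgeR. The median over those tested was -1.58. Ccl5, a chemokine of cytotoxic lymphocytes, had 15, 8 and 65 counts in the deletion libraries, against 35 and 57 in the controls (log2 fold change -1.66, SE 0.77). Tcf7, a transcription factor of T cells that epithelium can also express, had 531, 971 and 702, against 390 and 207 (0.63, SE 0.46). These 2 were the members of highest mean TPM.

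The plot of fold changes sets the T and NK cell markers beside the other lineages, with an interval for each.

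**Figure D2:**
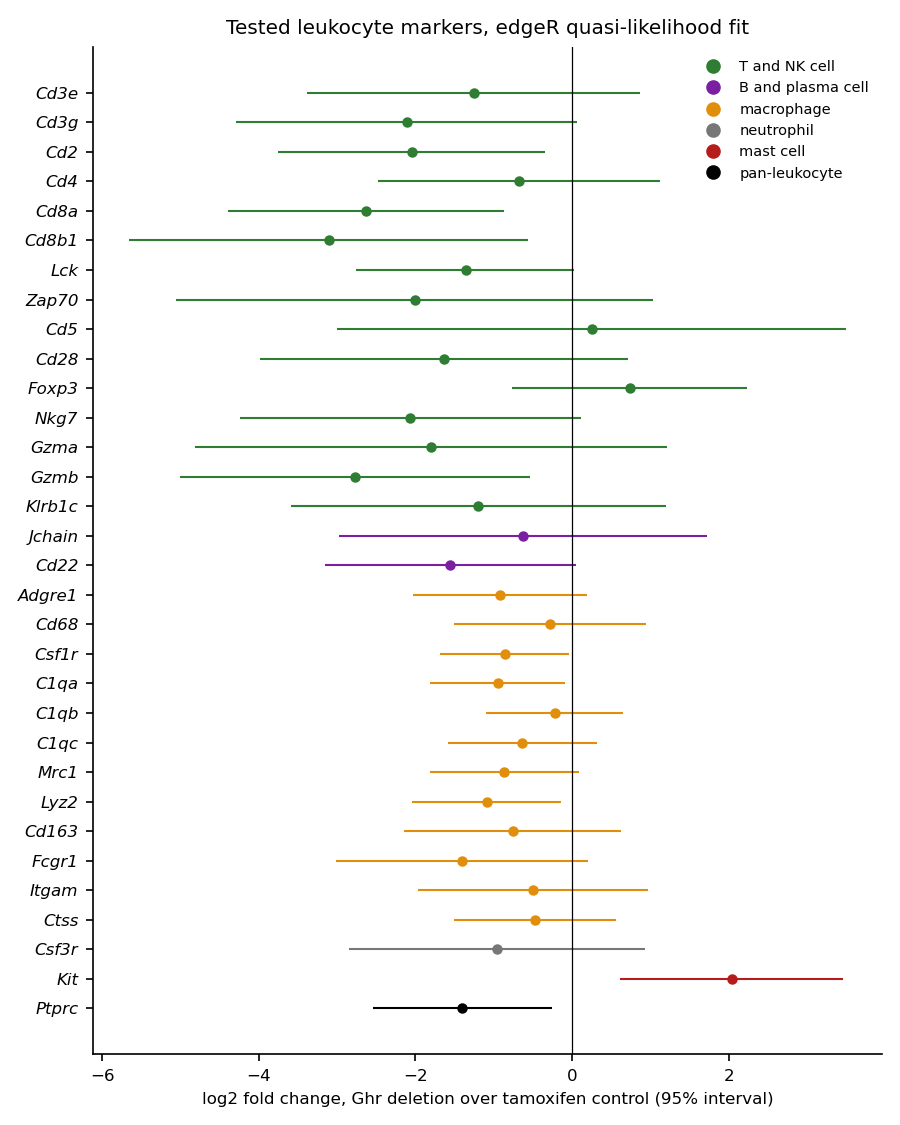
Log2 fold change of Ghr deletion over tamoxifen control (x axis) with its 95% interval for the 32 tested members that had over 3 counts in at least 3 libraries, from edgeR's quasi-likelihood fit, coloured by lineage. Most points lie left of 0, from -3.11 for Cd8b1 to -0.22 for C1qb, and Kit lies right of 0 at 2.04; no member passed the adjusted test.

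Macrophage markers had the highest summed TPM of the 5 lineages in every library, and a median nearer 0 than the T and NK cell markers. All 12 were tested and the median was -0.81. All 12 had a fold change below 0, against 49.6% of all tested genes. For 8 of the 12, every deletion library lay below both controls, against 10.2% of all tested genes. Counts of the 12 summed to 2272, 2805 and 5021 in the deletion libraries, against 2592 and 3660 in the controls. In CPM the sums were 79.6, 87.9 and 93.3, against 111 and 177. In TPM they overlapped, with 28.8, 39.3 and 131 against 12.6 and 127. The deletion libraries were close together in CPM and the 2 controls were not.

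Ctss and Lyz2 led the lineage in TPM. Lyz2, lysozyme of macrophages and neutrophils, had 451, 380 and 822 counts in the deletion libraries, against 445 and 869 in the controls, or 15.8, 11.9 and 15.3 CPM against 19.0 and 42.1. Its log2 fold change was -1.09 (SE 0.40, 95% interval -2.05 to -0.14), with control replicate 2 far above control replicate 1; without control replicate 2 it was -0.41. Ctss, the lysosomal protease cathepsin S, had 435, 807 and 1676 counts, against 520 and 909, and its log2 fold change of -0.47 (SE 0.43) rested on overlapping groups. Without control replicate 2 the value for Ctss was 0.10.

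Surface receptors of macrophages split by how clearly the groups stood apart. Csf1r, the receptor for colony stimulating factor 1, had 261, 239 and 617 counts in the deletion libraries, against 357 and 389 in the controls, or 9.15, 7.49 and 11.5 CPM against 15.3 and 18.8. Its log2 fold change was -0.86 (SE 0.34, 95% interval -1.68 to -0.04). Adgre1, the F4/80 antigen, had 145, 90 and 272 counts, against 147 and 208 (-0.92, SE 0.46), and Mrc1, the mannose receptor, 154, 246 and 269, against 209 and 270 (-0.87, SE 0.40). These 3 kept the groups apart in CPM.

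Fcgr1, a high-affinity IgG receptor, had 10, 12 and 51 counts in the deletion libraries, against 34 and 32 in the controls (log2 fold change -1.40, SE 0.68), with the groups apart in CPM. Cd163, the haemoglobin scavenger receptor, had 39, 115 and 134, against 70 and 112 (-0.76, SE 0.58). Cd68, a lysosomal membrane protein, had 41, 53 and 86, against 54 and 31 (-0.28, SE 0.51). Itgam, the integrin CD11b of myeloid and NK cells, had 323, 254 and 143, against 200 and 250 (-0.50, SE 0.62). Groups overlapped for Cd163, Cd68 and Itgam, and Itgam was lowest in the deletion library where the other macrophage markers had the most counts.

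C1q is built from 3 chains whose genes, C1qa, C1qb and C1qc, lie in a cluster on the minus strand of chromosome 4. C1qa had 154, 220 and 332 counts in the deletion libraries, against 234 and 286 in the controls (log2 fold change -0.95, SE 0.36). C1qb had 165, 254 and 406, against 194 and 171 (-0.22, SE 0.36), and C1qc 94, 135 and 213, against 128 and 133 (-0.64, SE 0.40). All 3 kept the deletion libraries below both controls in CPM, by a narrow margin for C1qb, at 7.96 in the highest deletion library and 8.28 in the lower control. Their shares of each other do not depend on library scaling. C1qa took 37.3%, 36.1% and 34.9% of the 3 chains' counts in the deletion libraries, against 42.1% and 48.5% in the controls, and C1qb 40.0%, 41.7% and 42.7%, against 34.9% and 29.0%. C1qc took 22.8%, 22.2% and 22.4%, against 23.0% and 22.5%, so C1qa and C1qb separated the groups and C1qc did not. The shares of C1qa and C1qb were looked at after their values were seen and were not tested.

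The sequence just before the start of these genes is shown because the chains share a lineage and a cluster. Promoter windows of 250 bases before the start were taken from RefSeq (GRCm38.p6) for 33 of the 43 members, in 40 windows; stretches inside an annotated gene were left out of the printed runs. GAGGAA, a core bound by the ETS factors that include PU.1 of myeloid cells, was searched on both strands and is in capitals (TTCCTC is its reverse complement). It was in 7 of 9 macrophage windows (77.8%), 24 of 40 members' windows (60.0%) and 23.3% of all 32851 windows. By lineage it was also in 4 of 5 neutrophil, 3 of 5 mast cell, 8 of 16 T and NK cell, 1 of 3 B and plasma cell and 1 of 2 Ptprc windows. C1qb is shown at chr4:136886201-136886450 and C1qc at chr4:136893066-136893164, both on the minus strand and written 5′ to 3′ of the gene.
C1qb: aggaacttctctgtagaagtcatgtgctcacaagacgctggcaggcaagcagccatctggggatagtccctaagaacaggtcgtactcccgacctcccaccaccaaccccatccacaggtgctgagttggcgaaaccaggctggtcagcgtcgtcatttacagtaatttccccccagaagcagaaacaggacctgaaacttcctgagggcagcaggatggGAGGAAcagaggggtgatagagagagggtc
C1qc: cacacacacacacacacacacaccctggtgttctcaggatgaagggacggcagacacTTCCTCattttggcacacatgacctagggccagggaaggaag

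Both printed runs hold 1 match. A match describes letters in the run and is no evidence of binding.

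Of 22 further macrophage and dendritic cell genes, 20 were tested, with a median of -0.77. Among those, 18 had a fold change below 0, against 49.6% of all tested genes. For 10, all deletion libraries lay below both controls, against 10.2% of all tested genes. Of the 20, edgeR and DESeq2 called 0, and 2 had an unadjusted p under 0.05 in edgeR. Mpeg1, the macrophage pore-forming protein perforin-2, had 605, 862 and 1676 counts in the deletion libraries, against 841 and 946 in the controls (log2 fold change -0.63, SE 0.30). Cd14, the lipopolysaccharide co-receptor, had 120, 272 and 757, against 47 and 163 (0.85, SE 0.74). These 2 had the highest mean TPM of their list and pointed in opposite directions.

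Within each library, T and NK cell markers took a smaller share of the lymphocyte and macrophage counts in the deletion libraries. Of the summed counts of the 16 T and NK cell and 12 macrophage markers, T and NK cell markers took 7.49%, 3.94% and 11.0% in the deletion libraries, against 18.4% and 13.3% in the controls. The 95% Wilson intervals were 6.52 to 8.60, 3.29 to 4.71 and 10.2 to 11.9, against 17.1 to 19.8 and 12.3 to 14.3, and cover counting error at most. The shares do not overlap between the groups, and the order was the same with TPM in place of counts, at 8.92%, 4.40% and 14.6% against 23.7% and 16.1%. This ratio needs no scaling between libraries, was chosen after the data were seen and was not tested.

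**Figure D3:**
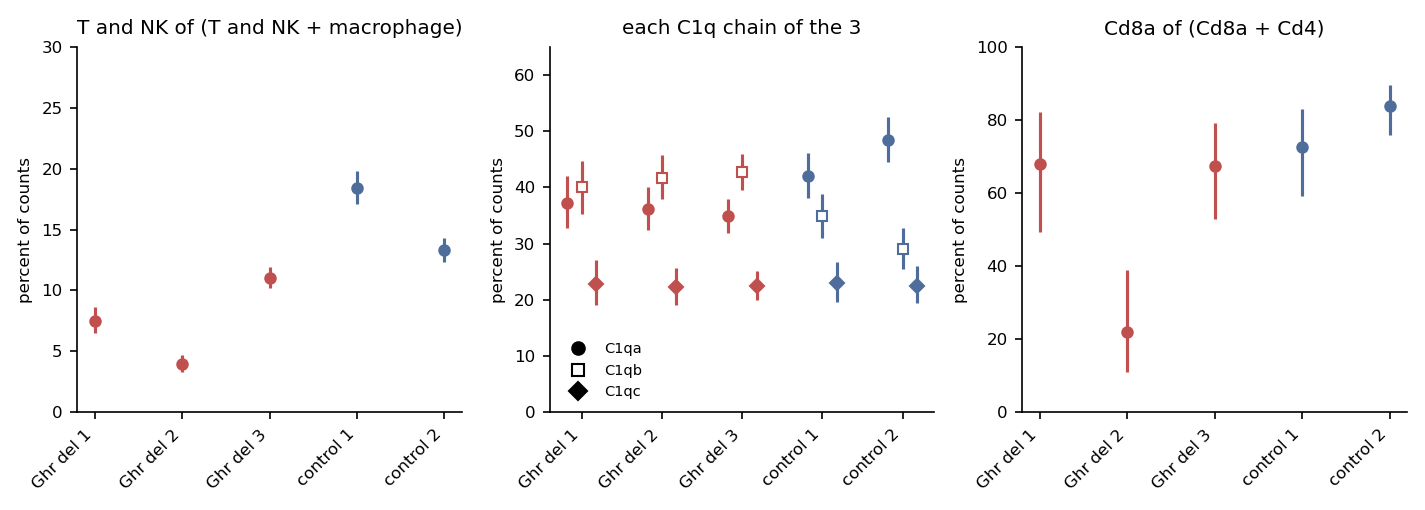
Shares of counts in percent (y axis) for each library, with the 3 Ghr deletion libraries in red left of the 2 tamoxifen controls in blue and 95% Wilson intervals as bars: T and NK cell markers of T and NK cell plus macrophage markers, each C1q chain of the 3, and Cd8a of Cd8a plus Cd4. The first share is 3.94 to 11.0 in the deletion libraries, below 13.3 and 18.4 in the controls.

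B and plasma cell markers were scarce in every library. The 6 members summed to 33, 19 and 76 counts in the deletion libraries, against 46 and 55 in the controls, and 2 were tested. Cd22, an inhibitory receptor of B cells, had 8, 8 and 14 counts, against 23 and 12 (log2 fold change -1.56, SE 0.67), with the groups apart in CPM. Jchain, the joining chain of secreted antibodies, had 22, 7 and 50, against 6 and 36 (-0.63, SE 0.98), and was 1.31 without control replicate 2. Of the antigen receptor genes, Cd79a had 0 counts in each deletion library, against 1 and 0, and Cd79b 1, 3 and 3, against 13 and 4. Ms4a1, the CD20 antigen, had 1, 0 and 7, against 3 and 2, and Mzb1, a chaperone of plasma cells, 1, 1 and 2, against 0 and 1. At or near the floor of 3 counts, no direction can be read for Cd79a, Ms4a1 or Mzb1.

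Of 16 further B and plasma cell genes, 7 were tested. Among those, 5 had a fold change below 0, against 49.6% of all tested genes. For 1 of the 7, all deletion libraries lay below both controls, against 10.2% of all tested genes. Of the 7, edgeR and DESeq2 called 0, with 0 at an unadjusted p under 0.05 in edgeR. Cr2, the complement receptor CD21 of mature B cells, had 2160, 6061 and 4741 counts in the deletion libraries, against 366 and 3392 in the controls, far above the antigen receptor genes of the same cells. Igkc, the kappa light chain constant region, had 20, 24 and 58, against 21 and 50.

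Neutrophil markers had few counts, with sums of 7, 46 and 26 in the deletion libraries, against 15 and 26 in the controls. Ly6g, the antigen used to sort mouse neutrophils, had 0 counts in all 5 libraries. S100a8 and S100a9, the paired calcium-binding proteins of neutrophil cytosol, were unevenly spread. S100a8 had 0, 16 and 0 counts in the deletion libraries, against 2 and 5 in the controls, and S100a9 0, 25 and 1, against 3 and 6. Deletion replicate 2 alone held most of their counts. Csf3r, the receptor for granulocyte colony stimulating factor, had 7, 5 and 25, against 10 and 15 (log2 fold change -0.96, SE 0.79). Of 16 further neutrophil genes 4 were tested, 2 below 0 and 2 above; Ltf, the granule protein lactoferrin that secretory epithelium also makes, had 652, 1246 and 8129, against 77 and 1831, and Il1r2, a decoy receptor for interleukin-1, 14, 19 and 109, against 43 and 18.

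Of the mast cell markers, Kit carried nearly all counts and the other 3 were at or near 0 in the deletion libraries. Kit, the receptor for stem cell factor on mast cells, melanocytes, germ cells and the pacemaker cells of smooth muscle, had 1645, 3442 and 4572 counts in the deletion libraries, against 209 and 656 in the controls. In CPM this was 57.7, 108 and 84.9, against 8.94 and 31.8, or 83.4 ± 25.1 (SD, n = 3) against 20.3 ± 16.1 (SD, n = 2). Every deletion library was above both controls. In TPM it was 7.64, 18 and 39.5, against 0.34 and 8.13, where deletion replicate 1 was just below control replicate 2. Its log2 fold change of 2.04 had an SE of 0.60 (95% interval 0.61 to 3.46) and an adjusted p of 0.991 in edgeR's quasi-likelihood test and 0.0877 in DESeq2, both after Benjamini-Hochberg adjustment. Without control replicate 1 the fold change was 1.39, and without control replicate 2 it was 3.22.

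Mast cell proteases and the IgE receptor did not accompany Kit. Cpa3, the granule carboxypeptidase, had 0, 0 and 1 counts in the deletion libraries, against 33 and 3 in the controls. Mcpt4, a mast cell chymase, had 2, 2 and 2, against 29 and 0, and Fcer1a, the alpha chain of the IgE receptor, 0, 0 and 0, against 6 and 1. Kit took 99.9% of the 4 genes' counts in each deletion library, against 75.5% and 99.4% in the controls. Control replicate 1 is the single library in which mast cell proteases were plain, and it is also the one with the lowest Kit CPM.

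Of 14 further mast cell, basophil and eosinophil genes, 5 were tested and 3 of those had a fold change below 0; edgeR and DESeq2 called 0, and 2 had an unadjusted p under 0.05 in edgeR. Gata2, a transcription factor of mast cells that is also expressed outside blood, had 1478, 1308 and 2161 counts in the deletion libraries, against 7182 and 866 in the controls, and Slc18a2, the vesicular monoamine transporter, 106, 150 and 203, against 82 and 69. Cma1, another chymase, had 1, 0 and 2, against 42 and 1. Hdc, which makes histamine, had 6, 16 and 2, against 104 and 7, and Mrgprb1, a mast cell receptor for secretagogues, 0, 0 and 0, against 34 and 1. Cma1, Hdc and Mrgprb1 were named after their values were seen. Like Cpa3 and Mcpt4, all 3 had their highest count in control replicate 1; elsewhere Cma1 and Mrgprb1 stayed at or under 2 counts and Hdc had 2 to 16.

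**Figure D4:**
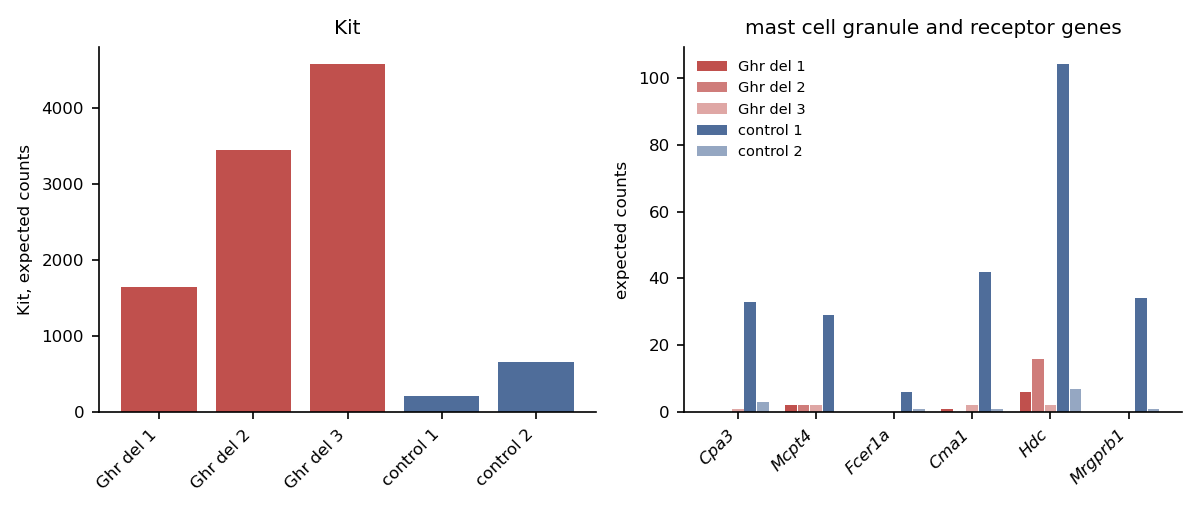
Expected counts (y axis) of Kit (left panel, one bar per library) and of 6 mast cell granule and receptor genes (right panel, bars grouped by gene), with the 3 Ghr deletion libraries in red left of the 2 tamoxifen controls in blue. Kit is 1645 to 4572 in the deletion libraries and 209 and 656 in the controls, while each of the 6 genes is highest in control replicate 1.

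Promoter windows of Kit, Cpa3 and Mcpt4 are shown because these genes of 1 lineage list did not vary together. AGATAA and TGATAA, forms of the GATA factor site, were searched on both strands along with GAGGAA, and matches are in capitals. The GATA forms were in 3 of 5 mast cell windows (60.0%), 8 of 40 members' windows (20.0%) and 16.6% of all 32851 windows. By lineage they were also in 3 of 16 T and NK cell, 1 of 5 neutrophil and 1 of 2 Ptprc windows. They were in 0 of 9 macrophage and 0 of 3 B and plasma cell windows. Kit is shown at chr5:75574737-75574915 on the plus strand, and Cpa3 at chr3:20242182-20242431 and Mcpt4 at chr14:56062314-56062560 on the minus strand (RefSeq, GRCm38.p6).
Kit: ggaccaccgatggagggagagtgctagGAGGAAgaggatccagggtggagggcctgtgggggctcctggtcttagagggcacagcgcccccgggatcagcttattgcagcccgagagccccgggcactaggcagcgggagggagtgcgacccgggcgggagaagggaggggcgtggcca
Cpa3: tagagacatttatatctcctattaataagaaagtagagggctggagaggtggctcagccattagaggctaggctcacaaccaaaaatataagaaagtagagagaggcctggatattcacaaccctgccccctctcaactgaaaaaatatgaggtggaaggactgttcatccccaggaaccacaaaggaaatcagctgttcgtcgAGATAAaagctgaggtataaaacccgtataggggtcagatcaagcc
Mcpt4: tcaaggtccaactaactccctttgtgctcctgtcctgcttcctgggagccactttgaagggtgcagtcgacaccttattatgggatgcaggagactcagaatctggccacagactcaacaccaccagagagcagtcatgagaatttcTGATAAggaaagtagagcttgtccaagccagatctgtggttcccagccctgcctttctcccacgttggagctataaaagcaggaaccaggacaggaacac

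The printed Kit run holds GAGGAA and neither GATA form, and those of Cpa3 and Mcpt4 hold 1 GATA form each and no GAGGAA. A missing match says only that these letters are not in the run.

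Lists of other cell types differed between the groups in both directions. DESeq2 calls are given by list, and edgeR called 0 in each. Over all tested genes, DESeq2 called 0.698% lower and 0.193% higher, and 49.6% had a fold change below 0 in edgeR. All 10 endothelial markers had a fold change below 0 (median -1.0), with summed CPM of 63.1, 45.7 and 63.6 in the deletion libraries, against 95.9 and 138 in the controls. All 8 fibroblast markers did too (median -1.64), at 295, 99.6 and 244 CPM, against 399 and 596, and all 8 mitosis genes (median -3.79), at 6.73, 10.8 and 5.12 CPM, against 233 and 44.3, with 6 called lower in DESeq2. The 7 tested red cell and platelet genes of 8 were below 0 (median -1.15), at 14.6, 4.73 and 5.70 CPM over the list, against 21.2 and 14.8. Smooth muscle genes had a median of -0.03, at 4410, 1200 and 2730 CPM, against 1790 and 3100. Epithelial genes had a median of -0.31, at 940, 1930 and 1880 CPM, against 1080 and 1530, with Krt15 called lower in DESeq2. The 3 tested urothelial genes of 5 were above 0, at 47.0, 68.4 and 164 CPM over the list, against 80.0 and 25.2. Of the 9 seminal vesicle genes, 7 were below 0 (median -11.37) and DESeq2 called 6 lower. Of the 5 tested prostate genes, 4 were below 0 (median -2.52), at 111, 247 and 28.4 CPM over the list of 8, against 4450 and 33.3; DESeq2 called Spink1 and Sbp lower and Acpp higher (109, 245 and 26.7 CPM in the deletion libraries, against 3.68 and 20.4 in the controls). Of the 6 lymphoid stroma genes 2 were tested, 1 with a fold change below 0 and 1 above. The list summed to 1.37, 3.07 and 1.41 CPM, against 8.43 and 4.75, and to 39, 98 and 76 counts, against 197 and 98. Cxcl13, of the same list, had more counts in deletion replicates 2 and 3 than in either control. Ccl21a, a chemokine of lymphatic vessels and lymph node stroma, was called lower in DESeq2, with 23, 14 and 40 counts, against 194 and 84, and Glycam1, of lymph node venules, had 0 in all 5. The part of these tissue differences in the leukocyte values was not tested.

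Leaving out both control replicate 1 and deletion replicate 3, which leaves 2 deletion libraries and 1 control, gave a median of -1.35 over the tested members, -2.39 over T and NK cell markers and -1.12 over macrophage markers. The lone control is then assumed to vary like the deletion libraries. Ptprc differed by -1.78 to -1.04 on the log2(CPM + 0.5) scale when each library was left out in turn. Without deletion replicate 2, the library with the fewest lymphocyte counts, the T and NK cell median was -1.27.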

How the data were processed

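Members, gene lists, tests and alternatives were chosen with earlier results of these data known. Libraries were made with the TruSeq Stranded Total RNA kit after NucleoSpin extraction, per the labels' protocols. Tools credited to the submitters' processing notes are RSEM 1.3.0, STAR 2.5.3a and bcl2fastq 2.20.422, on build GRCm38; which annotation release and strand setting were used is not given in the sources used here. Per the file headers, the authors deposited expected counts, which are not normalized, and TPM, with gene lengths and effective lengths as other values. Of 51912 gene IDs, 51633 (99.5%) matched a symbol. Gene positions are from GENCODE M21.

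Expected counts were rounded. All 5 libraries were fitted with edgeR 4.0.16 (R 4.3.3): filterByExpr, TMM, glmQLFit (robust) and glmQLFTest on the group alone, with Benjamini-Hochberg adjustment over 18615 genes. TMM factors were 1.00, 0.843 and 1.61 for Ghr deletion, against 0.491 and 1.50 for tamoxifen control. The scripts were tested on simulated data. The median SE was 0.529 over all genes and 0.693 over tested members; 14 members had under 50 counts in all libraries together. The floor of 3 counts was 0.105, 0.0940 and 0.0557 CPM in the deletion libraries, against 0.128 and 0.145 in the controls. Fold changes are printed for the 32 tested members with over 3 counts in at least 3 libraries. Exons of 7 members overlap another listed gene (Foxp3, Cd3e, Lck, Klrb1c, Cd22, Csf1r and Itgam), so their counts may share reads. Reads carry no molecular identifiers here, so PCR copies are not told apart. The Wilson intervals and floors treat each read as independent, so they can understate even the counting error. They leave out the spread between mice.

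Named genes were all members and, of each further or other-cell list, the 2 of highest mean TPM and any that passed. Coro1a, Ctla4, Cma1, Hdc, Mrgprb1, Pbsn, Hoxb13, Acpp, Spink1, Sbp, Krt15, Ccl21a, Glycam1 and Cxcl13 were chosen after their values were seen. No gene of these lists passed edgeR's test. For the other-cell lists, sums and, where 4 or more genes were tested, medians are given in place of the rule's 2 genes. Alternatives were DESeq2 1.42.0, its size factors, library totals, limma 3.58.1 on log2(TPM + 0.1) of the deposited values, limma-voom, other count filters, each library left out, control replicate 1 and deletion replicate 3 left out together, and a replicate block.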

Additional observations from a re-analysis of the deposited data

How the results depend on the processing

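Leukocyte markers called stayed at 0 in all 14 other settings. Over all genes the count was 0; it was 166 with DESeq2, 85 with control replicate 1 and deletion replicate 3 both left out, 46 with library totals, 12 with limma on log2(TPM + 0.1) and 0 to 48 with 1 library left out (2 without deletion replicate 3, 48 without control replicate 2). Of 35 tested markers, 31 were below 0, against 15 with TPM. In every deletion library 20 were below both controls (10.2% of all genes were), against 1 with library totals (2.69%) and 0 with TPM (0.688%). The median over all markers (-0.96) was -1.35 with both libraries out, 0.08 with TPM, -1.30 with limma-voom and -1.17 to -0.71 with 1 library left out. For macrophage markers (-0.81) it was -1.12 with both out, 0.13 with TPM and -1.06 to -0.53 with 1 left out, and for T and NK cell markers (-1.72) -2.39, -0.54 and -2.56 to -1.27, and -1.27 with library totals.

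Single genes turned direction mostly with TPM: Adgre1 0.10, C1qa 0.13, C1qb 0.82, C1qc 0.40, Cd163 0.08, Cd3e 0.12, Cd4 0.22, Cd68 0.99, Csf1r 0.12, Csf3r 0.19, Ctss 0.62, Itgam 0.26, Jchain 0.11, Klrb1c 0.14, Lyz2 0.08 and Mrc1 0.12. With library totals C1qb was 0.00, Cd5 -0.00 and Cd68 0.10; with limma-voom Cd5 was -0.66, and with both libraries out Cd68 was 0.04. With 1 library left out, Cd5 ran from -0.31 to 1.15, Cd68 from -0.56 to 0.06, Ctss from -0.88 to 0.10 and Jchain from -1.43 to 1.31. The TPM setting changes both the scale and the fit and puts the median of all genes at 0.91; of its 16 reversed markers, 15 (all but Cd68) are below that median. Of 32 markers with a printed fold change, 16 moved by over 1.5 times on leaving out 1 library. The causes were not tested.

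The replicate numbers do not mark shared litters or batches in the labels, so a replicate block has no basis in the design. Correlations of deviations between same-numbered libraries were 0.106 and -0.13. The deviations of 2 controls from their mean mirror each other, so these correlations cannot decide on pairing. With the replicate block 8 genes were called, 0 of them leukocyte markers, and the T and NK cell median was -2.45. Low counts limit the B cell, neutrophil and mast cell lists, and 2 controls limit all comparisons.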

Other observations

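Genes below were chosen after their values were seen and their differences were not tested further. Ikzf1, the lymphoid transcription factor Ikaros, had 664, 1267 and 2664 counts in the Ghr deletion libraries, against 81 and 716 in the tamoxifen controls, while Ptprc had 320, 156 and 789, against 560 and 621. Igha, the constant region of IgA, had 3, 1 and 43 counts, against 2 and 68, so deletion replicate 3 and control replicate 2 held nearly all of it. Ncr1, the NK cell receptor NKp46, had 9, 0 and 32, against 59 and 4. Epx, eosinophil peroxidase, had 28, 38 and 0, against 0 and 1, with Prg2, the major basic protein of eosinophils, at 0 in all 5 libraries. Cxcl13, a B cell chemokine of the lymphoid stroma list, had 5, 83 and 29, against 0 and 10.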
